A study of Mus musculus with 6 samples.

Results

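The genes of mitosis described here are 42 genes whose products condense, align and separate chromosomes and divide the cell, chosen by symbol from a list of known mitotic genes. Each of the 42 was found once among the 39174 genes of every deposited table. All 42 reached a mean of 1 FPKM (fragments per kilobase of transcript, scaled to the library's total) over the 6 libraries, and entered the comparison with 14611 tested genes in all.

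RNA-seq was done on primary mouse motoneuron cultures of strain CD-1, 3 libraries from Nmd-/- and 3 from Nmd+/+ cultures, each genotype with replicates numbered 1 to 3. Nmd-/- animals carry the neuromuscular degeneration mutation in both copies of Ighmbp2, which encodes a helicase and is the gene of spinal muscular atrophy with respiratory distress, and Nmd+/+ animals carry the normal allele. No drug or other treatment is named for either genotype. The labels do not say whether replicates came from separate embryos or cultures, so the spread between them may be technical in part.

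Summed over genes, the widths of the Cufflinks intervals corresponded to 15376295 to 23063074 fragments per library, which is not a count of sequenced fragments. Ighmbp2 itself measured 0.876, 0.788 and 0.598 FPKM in Nmd-/- replicates 1, 2 and 3, against 1.43, 1.30 and 1.09 FPKM in Nmd+/+ replicates 1, 2 and 3, and the groups did not overlap. Its log2 difference was -0.38 (SE 0.14; limma adjusted p = 0.9997; exact two-sided permutation p = 0.1, the smallest that 3 against 3 libraries allow). On log2(FPKM + 0.1), which understates low genes less than the pseudocount of 1 used here, it was -0.70. Both libraries numbered 2 stood apart by RNA of fibroblasts and meninges, whose 18 markers summed to 463 FPKM in the Nmd-/- library of that number, against 413 FPKM in the Nmd+/+ library. In the other 4 libraries those sums were between 74.3 and 121 FPKM. The defining motoneuron genes Chat and Mnx1 were below 0.1 FPKM in all 6 libraries, as was Isl2, another motoneuron marker. Other listed motoneuron markers were present, and 10 of the 19 found were abundant enough to be tested. Together the 19 summed to between 329 and 348 FPKM in every library, with a highest single value of 239 FPKM. The levels below are thus those of the culture as sequenced, and the cells that carried the mitotic transcripts are not named by the labels. In such bulk RNA, fewer dividing cells and less mitotic RNA per cell cannot be told apart.

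Entry into mitosis is driven by Cdk1 bound to cyclin B, once the Cdc25 phosphatases have removed inhibitory phosphates from the kinase. Aurora and Polo kinases build the spindle, the checkpoint proteins hold anaphase until every kinetochore is attached, and the anaphase-promoting complex then marks securin and cyclin B for destruction. Neurons have left the cell cycle, whereas spinal progenitors, glia and fibroblasts can still divide. In a spinal culture most of these transcripts are therefore commonly read as marks of dividing cells, which was not tested here. Many mitotic genes are switched on late in the cycle through a promoter element called the CHR (cell cycle genes homology region) together with CCAAT boxes bound by NF-Y, and FOXM1 and the DREAM complex act at the CHR.

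Promoter windows of RefSeq (build GRCm38.p6, 250 bases before to 50 bases after a gene's start) were matched to 35 of the 42 genes, and 4 of them are shown because they belong to the switch into and out of mitosis. The windows of Tpx2, Ccna2, Foxm1, Incenp, Aurkb, Cdc25c and Spc24 were not used here. Capitals mark the CHR letters TTTGAA or TTCGAA and the CCAAT box letters CCAAT, each read on both strands, so that ATTGG is a CCAAT box on the reverse strand and TTCGAA reads the same on both.
Cdk1 promoter, chr10:69352863-69353162, minus strand: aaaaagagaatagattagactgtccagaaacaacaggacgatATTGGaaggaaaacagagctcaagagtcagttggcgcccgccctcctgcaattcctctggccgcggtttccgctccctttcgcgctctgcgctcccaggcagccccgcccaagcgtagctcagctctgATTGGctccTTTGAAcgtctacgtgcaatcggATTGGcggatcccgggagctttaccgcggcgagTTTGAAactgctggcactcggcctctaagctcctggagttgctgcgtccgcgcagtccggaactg
Ccnb1 promoter, chr13:100786437-100786736, minus strand: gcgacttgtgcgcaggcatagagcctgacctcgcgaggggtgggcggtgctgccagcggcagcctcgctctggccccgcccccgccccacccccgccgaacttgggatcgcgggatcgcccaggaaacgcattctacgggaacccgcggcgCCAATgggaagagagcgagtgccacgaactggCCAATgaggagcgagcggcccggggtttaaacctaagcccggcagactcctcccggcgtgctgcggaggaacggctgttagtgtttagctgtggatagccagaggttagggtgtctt
Plk1 promoter, chr7:122159185-122159484, plus strand: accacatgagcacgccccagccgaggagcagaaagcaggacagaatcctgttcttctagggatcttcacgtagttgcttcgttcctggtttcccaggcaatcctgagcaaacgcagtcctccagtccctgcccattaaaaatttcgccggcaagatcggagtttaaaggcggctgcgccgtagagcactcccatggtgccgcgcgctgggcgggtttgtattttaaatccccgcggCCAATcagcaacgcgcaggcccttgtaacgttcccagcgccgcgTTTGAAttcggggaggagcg
Cdc20 promoter, chr4:118437294-118437593, minus strand: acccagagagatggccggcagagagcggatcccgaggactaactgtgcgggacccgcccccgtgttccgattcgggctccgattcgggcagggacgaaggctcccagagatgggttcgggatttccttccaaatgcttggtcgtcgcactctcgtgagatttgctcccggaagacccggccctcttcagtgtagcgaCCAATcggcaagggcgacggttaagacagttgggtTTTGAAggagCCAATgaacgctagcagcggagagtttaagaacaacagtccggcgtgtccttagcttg

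CHR letters were found in 26 of the 35 genes (74.3%), against 21.7% of 27025 genes with a window. CCAAT letters were found in 27 of the 35 (77.1%), against 41.1% of all, and 20 of the 35 (57.1%) held at least 2 CCAAT matches, against 13.3%. Both elements together stood in 24 of the 35 genes (68.6%), against 8.61% of all. In Cdk1 the CHR letters begin 71 and 15 bases before the start, with reverse CCAAT boxes beginning 208, 80 and 48 bases before it. Cdc20 has its CHR 18 bases before the start between CCAAT boxes at 53 and 8 bases, and Plk1 has a CCAAT box 14 bases before the start and a CHR from base 31 after it. In Ccnb1 the window holds CCAAT boxes at 99 and 67 bases before the start and no CHR letters. The E2F letters TTCCCGC or TTGGCGC, also read on both strands, were in 4 of the 35 genes (11.4%), against 7.79% of all, and in Ccnb1 that match shares letters with a CCAAT box. Among the members' windows, 1 CHR and CCAAT match shared a base. A match of letters describes the window and does not show that a factor binds there.

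The mitotic transcripts were abundant in both genotypes. Their mean over the 6 libraries lay between 2.15 FPKM for Espl1 (separase) and 241 FPKM for Ube2c, with a median of 36.1 FPKM, and 36 of 42 exceeded 10 FPKM. Only Aspm, Cdc25c, Ndc80, Cenpe, Spc24 and Espl1 among the 42 were below that level. Summed over the 42 genes, the level was 1724, 1886 and 2008 FPKM in Nmd-/- replicates 1, 2 and 3, against 1652, 2023 and 1357 FPKM in Nmd+/+ replicates 1, 2 and 3. The summed level of Nmd+/+ replicate 3 was the lowest of the 6 and that of Nmd+/+ replicate 2 the highest, with all 3 Nmd-/- libraries between them. Within a library the levels were precise, since the interval of a member corresponded to no fewer than 178 fragments (Spc24) and up to 45569 (Mki67).

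**Figure D1:**
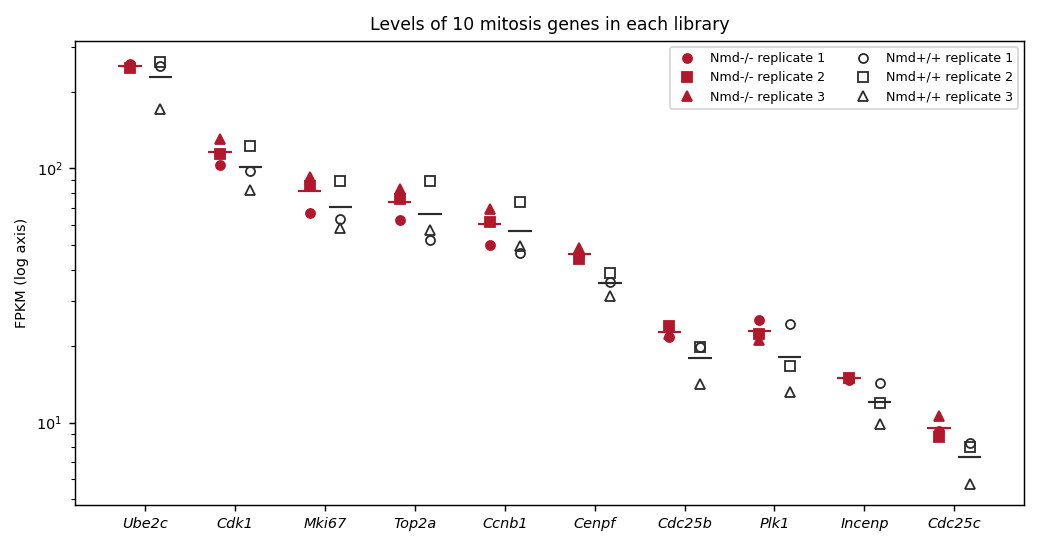
FPKM (log axis) of 10 mitosis genes in each library, Nmd-/- filled and left of Nmd+/+ open, with replicate numbers by symbol and horizontal bars at the mean of 3 libraries. Nmd+/+ replicate 3 is the lowest library for 8 of these 10 genes, the exceptions being Top2a and Ccnb1.

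Between genotypes, 41 of the 42 mitosis genes were higher in Nmd-/- by their log2 difference, where 56% of all tested genes were. The median log2 difference of the 42 was 0.19, against 0.02 over all tested genes, and the ratio of mean FPKM lay between 0.971 (Pttg1) and 1.30 (Cenpf). None of the 42 passed the test, with limma adjusted p = 0.9997 for each, and 0% of the 14611 genes passed. With the replicate number as a block, the adjusted p of the members lay between 0.944 and 0.999, and again 0% of all genes passed. At an unadjusted p under 0.05, 1 of 42 members was higher (0.274% of all genes) and 0 lower (0.171%). The same count with the block was 7 of 42 higher (3.13% of all genes) and 0 lower (1.74%). With a GC correction added to the block, chosen after the data were seen, it was 4 of 42 higher (2.59% of 14412 genes) and 0 lower (2.42%). Those 4 were Cenpf, Plk1, Cdc25b and Cdc25c, and Cdc20, Incenp and Gtse1 were no longer among them.

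The values of the genotypes did not overlap for 4 of the 42 genes, all higher in Nmd-/- (1.76% of all genes were higher without overlap, and 0.91% lower). These were Cenpf, Cdc25b, Incenp and Cdc25c. In 9 of 42 genes the Nmd-/- library was higher in all 3 replicate numbers (14.9% of all genes), and in 0 of 42 it was lower in all 3 (10.6%). The 9 were Bub3, Cenpa, Cenpf, Cdc20, Plk1, Cdc25b, Incenp, Cdc25c and Espl1.

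The difference was not shared by the 3 replicate numbers. Within number 3 all 42 genes were higher in Nmd-/- (57.5% of all genes), with a median log2 difference of 0.57 and a median ratio of 1.53. Within number 1, 35 of 42 were higher (49.4% of all genes), with a median of 0.06 and a median ratio of 1.05. Within number 2, 13 of 42 were higher (52.7% of all genes), with a median of -0.08 and a median ratio of 0.941. Over all tested genes the medians within numbers 1, 2 and 3 were -0.001, 0.02 and 0.04. With 1 library per genotype in a number, these differences compare libraries and carry no test. The libraries of number 3 also differed in Xist, a long non-coding RNA made from an inactivated X, at 0.143 FPKM in Nmd-/- against 273 FPKM in Nmd+/+. Those of number 2 differed the other way, at 259 FPKM in Nmd-/- against 0.155 FPKM in Nmd+/+, and the part of this in the mitotic differences was not tested.

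The Cufflinks intervals of the 2 libraries gave the same picture within each number. In number 3 the interval of 41 of 42 genes lay wholly above in Nmd-/- (24.6% of all genes), and Pttg1 was the exception, while 0 of 42 lay wholly below (15.5%). In number 1, 7 of 42 lay above (4.73%) and 0 below (5.85%). In number 2, 7 of 42 lay above (21.1%) and 17 below (18.9%). Such intervals say nothing of the variation between cultures.

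**Figure D2:**
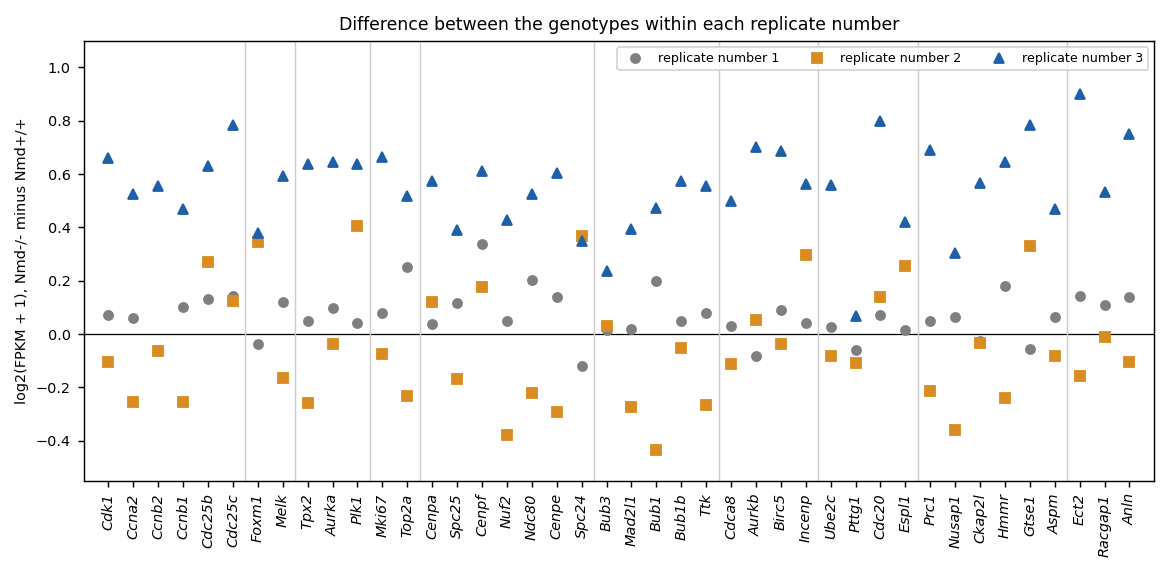
Difference on log2(FPKM + 1), Nmd-/- minus Nmd+/+, for each of the 42 genes within replicate number 1 (circles), 2 (squares) and 3 (triangles), in order of role with grey lines between roles. The triangles lie above 0 for every gene, the circles from -0.12 (Spc24) to 0.34 (Cenpf), and the squares from -0.43 (Bub1) to 0.41 (Plk1).

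The level of one library weighed heavily on the comparison. Nmd+/+ replicate 3 was the lowest of the 6 libraries for 33 of 42 genes (28.6% of all genes), and Nmd+/+ replicate 1 for the other 9 (13.9%). Those 9 were Top2a, Ccnb1, Mad2l1, Spc25, Nusap1, Nuf2, Hmmr, Bub1 and Aspm. Nmd+/+ replicate 2 was the highest for 20 of 42 (26.5% of all genes) and Nmd-/- replicate 3 for 14 (6.14%). Without Nmd+/+ replicate 3 the median log2 difference of the members was 0.06 with 32 of 42 higher, and without Nmd-/- replicate 3 it was 0.12 with 38 higher. It was 0.34 without Nmd+/+ replicate 2 and 0.32 without replicate 2 of both genotypes. Without replicate 3 of both genotypes it was -0.01, and 18 of 42 were higher.

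**Figure D3:**
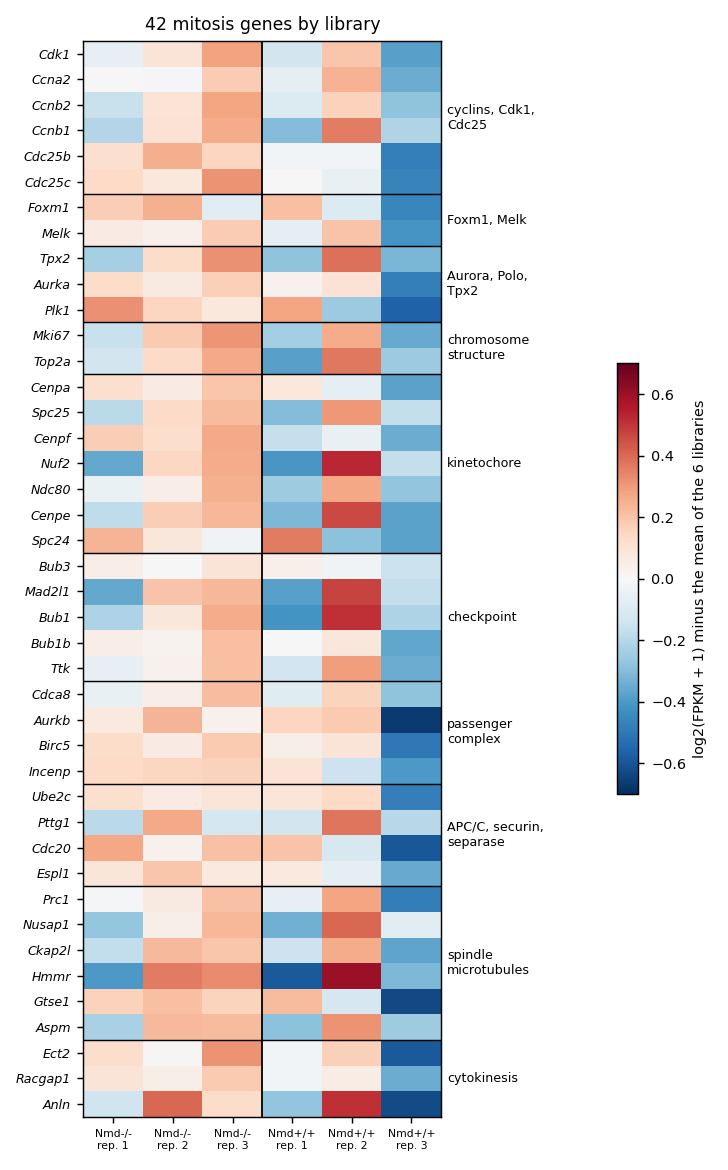
Level of each of the 42 genes in each library as log2(FPKM + 1) minus the mean of the 6 libraries (red above, blue below), genes in rows by role, Nmd-/- libraries left of the line and Nmd+/+ right. The column of Nmd+/+ replicate 3 is below the mean for all 42 genes, down to -0.67 (Aurkb), and Nmd+/+ replicate 2 holds the highest value, 0.61 for Hmmr.

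Among the cyclins, Cdk1 and its phosphatases, all 6 were higher by their log2 difference, with 0 past the test and within-number medians of 0.09, -0.08 and 0.59. Cdk1 (ENSMUSG00000019942, chromosome 10, 69336635 to 69352938, GRCm38), the kinase that starts mitosis, measured 103, 114 and 131 FPKM in Nmd-/- replicates 1, 2 and 3, against 98.1, 123 and 82.5 FPKM in Nmd+/+ replicates 1, 2 and 3. The groups overlapped through Nmd+/+ replicate 2, and the means were 116 ± 14 and 101 ± 20 FPKM (SD, n = 3 each; log2 difference 0.21, 95% interval -0.21 to 0.63). Ccnb1 (chromosome 13, 100778650 to 100786570), the cyclin B1 gene, measured 49.8, 61.7 and 69.0 FPKM in Nmd-/-, against 46.4, 73.9 and 49.6 FPKM in Nmd+/+. Its highest value was that of Nmd+/+ replicate 2, and the log2 difference of 0.10 (SE 0.21) was within the spread. Ccna2 and Ccnb2, for cyclins A2 and B2, had ratios of mean FPKM of 1.07 and 1.11. Exosc9, at a mean of 52.1 FPKM, overlaps Ccna2 in the genome.

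Cdc25b and Cdc25c, for phosphatases that activate Cdk1, were higher in Nmd-/- without overlap, but neither passed the test. Cdc25b (chromosome 2, 131186949 to 131198497), whose product acts at the centrosome before Cdk1 is fully active, measured 21.8, 24.1 and 22.4 FPKM in Nmd-/- replicates, against 19.8, 19.8 and 14.1 FPKM in Nmd+/+ replicates. The log2 difference was 0.34 (SE 0.16; limma adjusted p = 0.9997, and 0.990 with the block). Cdc25c (chromosome 18, 34732997 to 34751533), which activates Cdk1 at mitotic entry, measured 9.26, 8.80 and 10.6 FPKM in Nmd-/-, against 8.30, 7.995 and 5.75 FPKM in Nmd+/+. Every Nmd-/- value lay above every Nmd+/+ value, and the log2 difference was 0.35 (SE 0.16; limma adjusted p = 0.9997). Cdc25a, the third gene of the family and listed with the other genes of cell division, overlapped between genotypes, at 5.62, 6.51 and 6.57 FPKM in Nmd-/-, against 5.63, 6.74 and 4.49 FPKM in Nmd+/+. Spef1, at a mean of 1.86 FPKM, overlaps Cdc25b in the genome, and whether strand was used in counting is not given in the sources used here.

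Foxm1, for the transcription factor that drives late cell cycle genes, measured 27.8, 29.3 and 23.2 FPKM in Nmd-/-, against 28.5, 22.9 and 17.6 FPKM in Nmd+/+. Replicate 3 was the lowest within each genotype, the groups overlapped, and the log2 difference was 0.23 (SE 0.19). Melk, for a kinase of dividing progenitor cells, averaged 14.6 ± 0.8 FPKM in Nmd-/- and 13.0 ± 2.9 FPKM in Nmd+/+ (SD, n = 3 each).

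The Aurora and Polo kinase genes were higher by their means as well, all 3 of 3 with Tpx2 and 0 past the test. Plk1 (chromosome 7, 122159437 to 122169875), the Polo-like kinase of centrosomes and kinetochores, measured 25.3, 22.4 and 21.2 FPKM in Nmd-/- replicates 1, 2 and 3, against 24.5, 16.7 and 13.3 FPKM in Nmd+/+ replicates. The values of number 1 were nearly level between genotypes, and those of numbers 2 and 3 were higher in Nmd-/- by 0.41 and 0.64 on the log2 scale (difference 0.36, SE 0.22; limma adjusted p = 0.9997, and 0.990 with the block). Tpx2, which activates Aurora A on spindle microtubules, measured 55.9, 72.0 and 82.5 FPKM in Nmd-/-, against 53.9, 86.4 and 52.6 FPKM in Nmd+/+. Aurka itself averaged 27.5 ± 1.0 FPKM in Nmd-/- and 23.6 ± 5.0 FPKM in Nmd+/+ (SD, n = 3 each).

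Mki67 (chromosome 7, 135689788 to 135716379), which coats mitotic chromosomes and is the usual marker of proliferation, measured 66.9, 85.0 and 92.9 FPKM in Nmd-/-, against 63.2, 89.6 and 58.3 FPKM in Nmd+/+. The groups overlapped, with a log2 difference of 0.22 (SE 0.21, 95% interval -0.26 to 0.70). Top2a, the topoisomerase that untangles sister chromatids, measured 62.7, 75.6 and 82.7 FPKM in Nmd-/-, against 52.5, 89.0 and 57.4 FPKM in Nmd+/+. Both genes had a lower number 1 than number 2 in either genotype, and their within-number median differences were 0.17, -0.15 and 0.59.

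Of the 7 centromere and kinetochore genes all were higher by their log2 difference, from 0.03 (Nuf2) to 0.37 (Cenpf), with 0 past the test. Cenpf (ENSMUSG00000026605, chromosome 1, 189640599 to 189688086), for a large kinetochore protein that accumulates before mitosis, had the smallest p of the 42. It measured 45.6, 44.0 and 48.6 FPKM in Nmd-/- replicates, against 35.9, 38.8 and 31.5 FPKM in Nmd+/+ replicates, with no overlap and a difference above 0 in each number (0.34, 0.18 and 0.61 on the log2 scale). The log2 difference was 0.37 (SE 0.13, 95% interval 0.07 to 0.68; limma adjusted p = 0.9997, and 0.944 with the block). Cenpa, the centromeric histone variant, measured 59.8, 57.4 and 63.3 FPKM in Nmd-/-, against 58.2, 52.7 and 42.2 FPKM in Nmd+/+. The groups overlapped, as Nmd+/+ replicate 1 lay above Nmd-/- replicate 2.

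Of the 4 genes of the Ndc80 complex, which holds the microtubule end, Nuf2, Ndc80 and Spc25 shared a pattern and Spc24 departed from it. Nuf2 measured 15.3, 22.2 and 24.0 FPKM in Nmd-/-, against 14.8, 29.2 and 17.6 FPKM in Nmd+/+, so its means were level (ratio 0.999). Spc24 measured 6.57, 5.78 and 5.30 FPKM in Nmd-/-, against 7.23, 4.25 and 3.95 FPKM in Nmd+/+, with its highest values in number 1. Within number 2 Nuf2, Ndc80 and Spc25 differed by -0.38, -0.22 and -0.17 on the log2 scale, each with its highest value in Nmd+/+ replicate 2. Spc24 differed by 0.37 there, although the products form one complex. Ndc80 and Spc25 had ratios of 1.12 and 1.07, and Cenpe, for a kinetochore motor, 1.09.

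The spindle assembly checkpoint genes had the smallest median of the 10 role groups, 0.09 on the log2 scale, with 5 of 5 higher and 0 past the test. Bub3, which is also used outside mitosis, varied least of the 42 genes across libraries (highest over lowest 1.18). It measured 71.3, 69.1 and 73.4 FPKM in Nmd-/-, against 70.6, 67.7 and 62.0 FPKM in Nmd+/+. Bub1b, for the checkpoint protein BubR1, measured 14.7, 14.4 and 16.6 FPKM in Nmd-/-, against 14.2, 15.0 and 10.8 FPKM in Nmd+/+. Mad2l1, Bub1 and the checkpoint kinase gene Ttk had ratios of 1.02, 1.03 and 1.08, and within number 2 they differed by -0.27, -0.43 and -0.26 on the log2 scale. Bub3 overlaps Fgfr2 in the genome (mean 26.4 FPKM), so reads at that overlap may not have been told apart.

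The chromosomal passenger complex, which corrects faulty attachments, had 4 of 4 genes higher by their log2 difference and 0 past the test. Incenp (chromosome 19, 9872297 to 9899533), its scaffold, measured 14.8, 14.9 and 15.0 FPKM in Nmd-/- replicates, against 14.3, 11.98 and 9.84 FPKM in Nmd+/+ replicates. The Nmd-/- values were nearly equal and lay just above the highest Nmd+/+ value (log2 difference 0.30, SE 0.15; limma adjusted p = 0.9997, and 0.990 with the block). Cdca8 (borealin) measured 57.6, 61.8 and 69.5 FPKM in Nmd-/-, against 56.4, 66.8 and 48.9 FPKM in Nmd+/+. Birc5 (survivin) averaged 42.9 ± 2.0 FPKM in Nmd-/- and 36.6 ± 8.0 FPKM in Nmd+/+ (SD, n = 3 each). The kinase gene Aurkb averaged 52.9 ± 4.1 FPKM in Nmd-/- and 46.7 ± 14.2 FPKM in Nmd+/+ (SD, n = 3 each).

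Of the genes that end mitosis, 3 of 4 were higher by their log2 difference and 0 passed the test. Ube2c (chromosome 2, 164769898 to 164778822), the ubiquitin-conjugating enzyme of the anaphase-promoting complex and the most abundant of the 42, measured 258, 248 and 253 FPKM in Nmd-/-, against 253, 263 and 171 FPKM in Nmd+/+. All but Nmd+/+ replicate 3 lay close together. Cdc20, the activator of that complex, measured 36.5, 30.7 and 34.8 FPKM in Nmd-/-, against 34.7, 27.8 and 19.6 FPKM in Nmd+/+ (log2 difference 0.34, SE 0.21). Elovl1, at 25.1 FPKM, overlaps Cdc20 in the genome. Pttg1 (securin) was the 1 member with a negative difference, -0.03, at 34.3 ± 6.2 FPKM in Nmd-/- and 35.3 ± 8.2 FPKM in Nmd+/+ (SD, n = 3 each), and Espl1 had a ratio of 1.25.

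Among spindle microtubule proteins 6 of 6 were higher by their log2 difference, Nusap1 by 0.002, and 0 passed the test. With median-of-ratios scaling or quantile normalization Nusap1 was among the lower genes, and 40 of 42 members were higher. Prc1, which bundles the central spindle, measured 60.9, 64.1 and 70.8 FPKM in Nmd-/-, against 58.8, 74.5 and 43.5 FPKM in Nmd+/+. Gtse1, a microtubule regulator of the late cycle, measured 19.4, 20.1 and 19.3 FPKM in Nmd-/-, against 20.2, 15.8 and 10.8 FPKM in Nmd+/+ (log2 difference 0.35, SE 0.21). Hmmr varied most of the 42 genes (highest over lowest 2.39), at 14.03, 24.6 and 24.0 FPKM in Nmd-/-, against 12.3, 29.3 and 15.0 FPKM in Nmd+/+. Aspm and Ckap2l had ratios of 1.11 and 1.12.

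The 3 cytokinesis genes were higher by 0.21 to 0.30 on the log2 scale, with 0 past the test. Ect2, which activates RhoA at the cleavage furrow, measured 43.2, 39.9 and 49.5 FPKM in Nmd-/-, against 39.1, 44.7 and 26.1 FPKM in Nmd+/+. Its ratio within number 3, 1.90, was the highest of the 42 there, and Pttg1 had the lowest at 1.05. Racgap1, the centralspindlin subunit that recruits Ect2, measured 39.6, 38.2 and 42.3 FPKM in Nmd-/-, against 36.7, 38.5 and 28.9 FPKM in Nmd+/+. Anln, which links actin and septins at the furrow, had a ratio of 1.16, and its values ranged from 15.9 to 23.7 FPKM in Nmd-/- and from 11.1 to 25.5 FPKM in Nmd+/+.

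The split among members within number 2 followed the base composition of their transcripts. In number 2 the 16 members whose longest annotated transcript is under 45% GC had a median difference of -0.24, with 2 of 16 higher in Nmd-/-. The 14 members at 45 to 50% GC had a median of -0.09 with 2 of 14 higher. The 8 members at 50 to 55% GC had a median of 0.28 with 6 of 8 higher, and the 4 at 55% GC and over a median of 0.20 with 3 of 4 higher. All tested genes ran the same way in number 2, with medians of -0.17 under 45% GC (3735 genes), -0.04 at 45 to 50%, 0.10 at 50 to 55% and 0.22 at 55% and over (3102 genes). Across the 42 members GC content and the number 2 difference had Pearson r = 0.79, and across 14412 tested genes r = 0.52. Genes of 1 pair of libraries share those libraries and are not independent replicates, so no p is given.

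Within number 1 the members' r was -0.51, and within number 3 it was 0.10. The members' medians within number 3 were 0.52, 0.57, 0.60 and 0.60 in the same 4 classes of GC. Nuf2 and Spc24 fall in different classes, at 41.7% and 52.9% GC. With a GC correction of each library, chosen after these values were seen, the within-number medians of the members were 0.06, -0.05 and 0.51, and 41 of 42 were higher overall. Within number 3, 41 of 42 were then higher, with Pttg1 at -0.002. The SD of the 42 differences within number 2 was 0.14 with that correction and 0.22 without it. With it, Nuf2 was at -0.21 and Spc24 at 0.26 within number 2, still opposite in sign. Cenpf, at 43.3% GC, was then higher by 0.33, 0.31 and 0.55 within numbers 1, 2 and 3 (adjusted p = 0.951 in limma with the block and the GC correction).

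**Figure D4:**
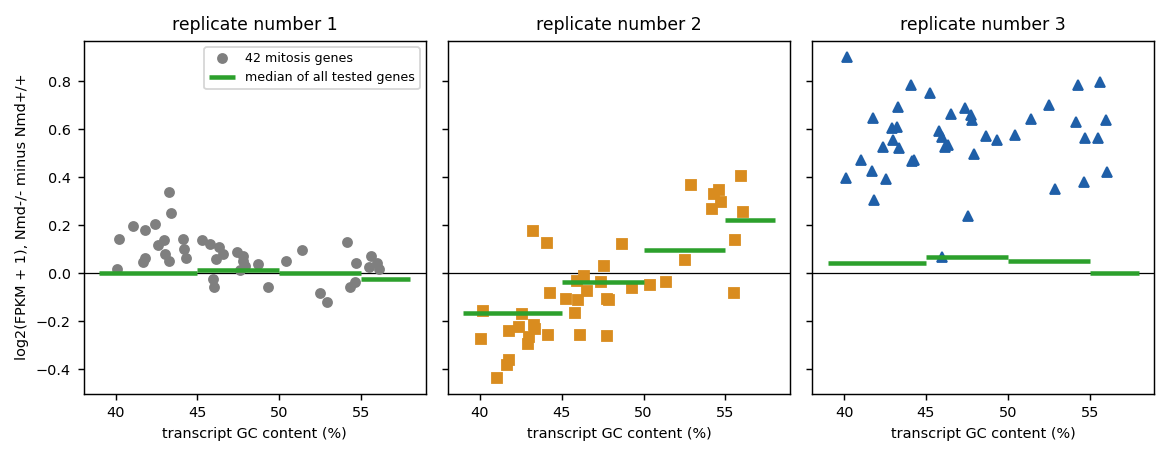
Difference on log2(FPKM + 1), Nmd-/- minus Nmd+/+, against transcript GC content within each replicate number. Points are the 42 mitosis genes and green bars the medians of all tested genes in 4 classes of GC. In number 2 the bars ascend with GC content, and the class medians of the mitosis genes ascend up to 50 to 55% and are lower again at 55% and over (0.28 and 0.20). In number 3 the mitosis genes lie above the bars at every GC content.

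Levels also differed between replicate numbers in both genotypes. For 22 of 42 genes both libraries of number 2 lay above both of number 1 (36.1% of all genes), among them Hmmr, Nuf2, Bub1, Top2a, Mki67 and Cdk1. The reverse held for 5 genes (38.3% of all genes), namely Bub3, Cenpa, Cdc20, Plk1 and Spc24. The part of the fibroblast RNA of number 2 in these levels was not tested.

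Other genes of cell division, listed by function, had the same order of within-number medians. Of 111 other mitosis genes tested, 90 were higher in Nmd-/- by their log2 difference and 0 passed the test, with a median of 0.10 and within-number medians of 0.05, -0.11 and 0.41. Troap, a spindle protein gene, had the smallest p, at 7.21, 7.53 and 5.78 FPKM in Nmd-/-, against 6.16, 5.62 and 3.80 FPKM in Nmd+/+ (limma adjusted p = 0.9997). Zwint, a kinetochore gene and the most abundant of that list, was lower by its mean, at 222 ± 42 FPKM in Nmd-/- and 241 ± 34 FPKM in Nmd+/+ (SD, n = 3 each).

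Of 59 DNA replication and S phase genes tested, 56 were higher by their log2 difference and 0 passed, with a median of 0.16 and within-number medians of 0.04, -0.03 and 0.49. All 59 were higher in Nmd-/- within number 3. Mcm10, a replication initiation factor, did not overlap between genotypes, at 9.29, 7.56 and 8.46 FPKM in Nmd-/-, against 6.79, 6.91 and 4.46 FPKM in Nmd+/+ (log2 difference 0.44, SE 0.18; limma adjusted p = 0.9997). Rrm2, a subunit of ribonucleotide reductase, averaged 211 ± 31 FPKM in Nmd-/- and 181 ± 48 FPKM in Nmd+/+. Among 24 G1 cyclins, Cdk inhibitors and pocket proteins, 20 were higher and 0 passed. Their within-number medians were 0.05, -0.08 and 0.36. Ccnd3 did not overlap, at 44.2, 46.5 and 43.5 FPKM in Nmd-/-, against 38.8, 38.5 and 26.9 FPKM in Nmd+/+, and Cdk4 averaged 422 ± 15 FPKM in Nmd-/- and 370 ± 65 FPKM in Nmd+/+ (SD, n = 3 each).

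The medians of neuron markers had the opposite sign within number 3, where the mitosis genes differed most. The 10 general neuron markers were lower in Nmd-/- for 10 of 10 within number 3, with a median of -0.40, and their medians within numbers 1 and 2 were -0.08 and -0.04. They summed to 1837, 969 and 1448 FPKM in Nmd-/- replicates 1, 2 and 3, against 1965, 953 and 1860 FPKM in Nmd+/+ replicates. Within number 3, all 16 tested markers of other spinal neurons were lower (median -0.34), and motoneuron markers for 9 of 10 (median -0.40). By their log2 difference over all libraries, 9 of the 10 tested motoneuron markers were lower in Nmd-/- and 1 higher (median -0.19), with 0 past the test. Summed over the 19 found, they were at 343, 348 and 348 FPKM in Nmd-/- replicates 1, 2 and 3, against 329, 344 and 335 FPKM in Nmd+/+ replicates. A single marker reached 239 FPKM, so 1 gene can carry much of such a sum. Oligodendrocyte lineage markers, from glia of which some can divide, had medians of -0.40, 0.05 and -0.54 within numbers 1, 2 and 3. Of the 8 tested, 0 were higher in Nmd-/- by their log2 difference.

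Radial glia and astrocyte markers, from cells that can divide, were higher for 9 of 20 within number 3, with a median of -0.04. Their 20 genes summed to 4480, 5459 and 4651 FPKM in Nmd-/-, against 4623, 4789 and 3651 FPKM in Nmd+/+. Fibroblast and meningeal markers, also from cells that can divide, were higher in Nmd-/- for 13 of the 15 tested, with a median log2 difference of 0.15 and 0 past the test. Their within-number medians were 0.03, 0.28 and 0.14, with 12 of 15 higher within number 3. Summed over all 18, their level was 121, 463 and 108 FPKM in Nmd-/- replicates 1, 2 and 3, against 112, 413 and 74.3 FPKM in Nmd+/+ replicates, and thus higher in Nmd-/- in each number. The summed level of the 42 mitosis genes was higher in Nmd-/- within numbers 1 and 3 but lower within number 2, at 1886 against 2023 FPKM. Schwann cell and neural crest markers, with 5 tested and 0 higher in Nmd-/- by their log2 difference, had within-number medians of 0.03, -0.18 and -0.04. Microglia and macrophage markers summed to at most 13.0 FPKM in any library, endothelial markers to at most 19.1 FPKM and erythroid markers to at most 0.929 FPKM. The part of these marker levels in the mitotic differences was not tested.

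**Figure D5:**
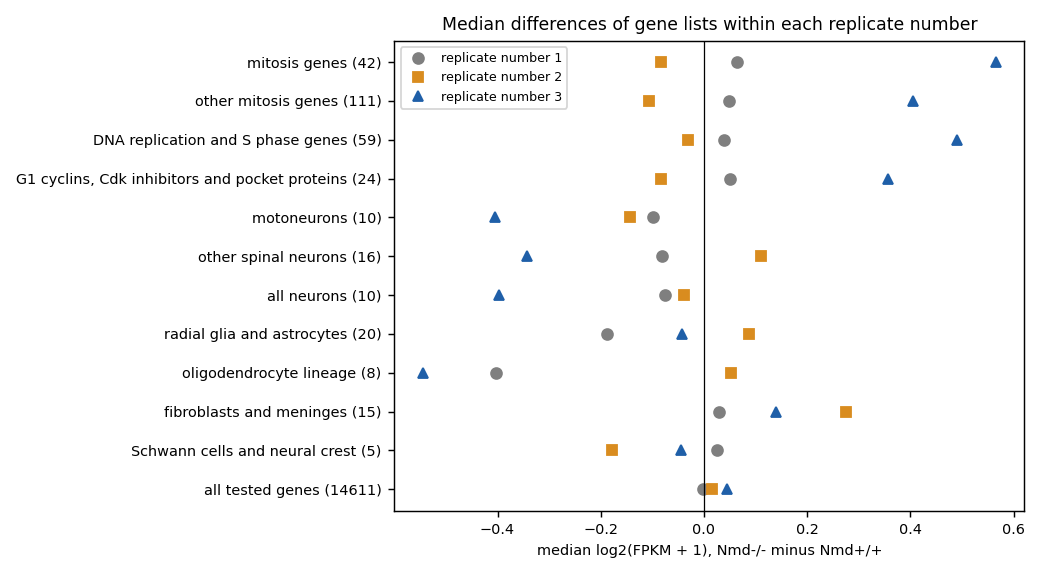
Median difference on log2(FPKM + 1), Nmd-/- minus Nmd+/+, of gene lists within replicate numbers 1 (circles), 2 (squares) and 3 (triangles), with the number of tested genes in brackets. Within number 3 the cell division lists lie between 0.36 and 0.57 and the neuron lists between -0.40 and -0.34.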

How the data were processed

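Per the file headers, the authors deposited 1 Cufflinks table per library giving each gene's FPKM with a 95% interval and a quality status. Per the submitters' processing notes, the build was GRCm38 and the tools were Cufflinks 2.2.1, SAMtools 1.3, cutadapt 1.8, Trim Galore 0.4.0 and FastQC 0.10.1. Strand setting, annotation release and aligner version: not given in the sources used here. Loci are printed from 1.

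FPKM hold no counts, and between 23.7% and 24.7% of low values (4 to 50 equivalent fragments) lay within 0.02 of a whole fragment, so counts were not recovered. Fragment equivalents were read from interval widths and need not follow sequencing depth. Cenpf, at a mean of 40.8 FPKM, corresponded to 501 to 800 fragments, and Aspm, at 9.82 FPKM, to 1282.5 to 1873.

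Nmd-/- minus Nmd+/+ was tested in R 4.3.3 with limma 3.58.1 (intensity trend) on log2(FPKM + 1), a scale that understates changes of low genes, without rescaling. Genes needed a mean of 1 FPKM and an accepted status in all libraries, and p-values are Benjamini-Hochberg adjusted over all 14611 (threshold 0.05, two-sided). The procedure was tested on simulated data with planted differences larger than that of any member. It therefore does not show whether differences of the members' size could be called. Same-numbered libraries deviated together (r = 0.82, 0.70 and 0.39 across genes for numbers 1, 2 and 3). Between unlike numbers r lay from -0.81 to 0.28, the highest for Nmd-/- replicate 1 with Nmd+/+ replicate 3. The numbers thus pair the samples by these values and not by a label, and least clearly for number 3. The block was an alternative. Transcript GC is that of the longest GENCODE M21 transcript.

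Members and lists were chosen with earlier results of these data known. In each role group the most abundant member and that with the smallest p are given by library, with Mki67, Top2a, Cdk1, Ccnb1 and members without overlap; of the other cell division lists, the gene with the smallest p and the most abundant one. Nuf2, Spc24 and Hmmr were added after their values were seen.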

Additional observations from a re-analysis of the deposited data

How the results depend on the processing

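No gene passed under any of the 19 alternatives, the smallest adjusted p of a member being 0.944 (Cenpf with the replicate block) and of any gene 0.074 (same fit). With the replicate block the count of called genes stayed 0, and the block changed no call. The median log2 difference of the members was 0.16 with median-of-ratios scaling, 0.17 with quantile normalization, 0.20 with a pseudocount of 0.1, 0.18 with genes kept from 5 FPKM and 0.18 with the GC correction added after seeing the data, while no filter on low values or no intensity trend left it at 0.19. Leaving out single libraries gave medians from 0.06 to 0.34 and between 32 and 42 members higher. Without replicate 3 of both genotypes the median was -0.010 and 18 of 42 were higher. Single members were followed only where the naming rule chose them. Among these, leaving out replicate 3 of both genotypes turned the log2 difference of Ube2c (-0.029), Tpx2 (-0.10), Cdca8 (-0.040), Ect2 (-0.0082), Cdk1 (-0.017), Bub1b (-0.00078), Prc1 (-0.082) and Ccnb1 (-0.077). Over single libraries left out, Ube2c lay between -0.029 and 0.28, Prc1 between -0.023 and 0.36, both lowest without Nmd+/+ replicate 3, and Ccnb1 between -0.022 (without Nmd+/+ replicate 1) and 0.31. The cause was not tested. Cenpf stayed between 0.26 and 0.47. The median within number 3 lay between 0.51 and 0.61 under the other scalings, filters and corrections. The widest interval of a member, relative to its value, corresponded to 178 fragments (Spc24). Within number 1 the 95% intervals of 35 of 42 members overlapped between genotypes.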
